A study of Mus musculus with 4 samples.

Results

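Haem is made by a chain of enzymes that begins and ends in mitochondria. Alas1 (in most cells) or Alas2 (in red blood cells) joins glycine and succinyl-CoA to 5-aminolaevulinate, Alad condenses this to porphobilinogen, Uros and Urod act on the tetrapyrrole in the cytosol, and Cpox, Ppox and Fech finish the ring in mitochondria and insert the iron. In the embryo at this stage the primitive red blood cells, which circulate through the heart, make haem for embryonic globins, whereas other cells need it for the cytochromes of respiration. The 8 genes described here are *Alas1*, *Alas2*, *Alad*, *Uros*, *Urod*, *Cpox*, *Ppox* and *Fech*, and all 8 were among the 32285 genes of the files. They were chosen by gene symbol, because *Alad* was lower in *Tie2-cko* cells of several types in these same data. The genotype difference of *Alad* is therefore given as a description, with no test, and the question put to the data was whether the other enzymes, or red cell RNA outside red blood cells, followed it.

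The hearts came from mouse embryos at E10.5, of both sexes and of mixed strain (129 with C57/BL6), and every embryo carried the floxed *Tie2* allele on both chromosomes. Control embryos (Tie2flfl) had no Cre, and *Tie2-cko* embryos (Nfatcre-Tie2flfl) carried the Cre knocked into *Nfatc1*, which acts in the endocardium and its descendants and not in the rest of the heart. There were 4 libraries of droplet-based single-cell RNA sequencing, controls 5 and 7 and *Tie2-cko* 6 and 8, with 33419 cells after filtering, and 2 libraries per genotype are the replicates. By the study's methods the hearts of a genotype came from 1 litter and control and mutant libraries were matched by somites, but which libraries match is not given. With littermates, p-values measure the spread between these libraries only.

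Between 5684 and 10097 cells were kept per library, with a median of 14878 to 25875 unique molecular identifiers (UMIs, the count of captured transcripts) per cell. Pairs of libraries shared 14 to 34 cell barcodes. *Tek*, which encodes TIE2, was at 0.886 and 1.00 UMIs per 10000 in chamber endocardial cells (EdCs) of controls 5 and 7 and at 0.125 and 0.150 in those of *Tie2-cko* 6 and 8 (log2 fold change -2.59, adjusted p = 0.0135 by edgeR's quasi-likelihood test), as the labels say. It was also at 26.7% of the control level in cushion EdCs (-1.96, adjusted p = 0.0986) and at 17.7% in mesenchymal cells of the cushions (-2.21, adjusted p = 0.583), and at 84.5% in epicardial cells. Control library 5 stood apart from the rest. It alone held *Xist* RNA at more than a trace (0.354 UMIs per 10000 in cardiomyocytes, CMs, against at most 0.000572 in the others) together with RNA of the Y-linked genes *Ddx3y*, *Uty*, *Kdm5d* and *Eif2s3y*, so that it held cells of at least 2 embryos, of both sexes. The other 3 libraries held Y-linked RNA and no more than traces of *Xist*. The levels of *Alad* are therefore also given without the *Xist* cells of library 5.

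Clusters were named from marker genes, and 7 cell types had at least 50 cells in every library: CMs (12314 cells), mesenchymal cells of the cushions (MCs, 3398), red blood cells (2481), chamber EdCs (1583), epicardial cells (1550), epithelial cells (1470) and cushion EdCs (1258). A further 8112 cells were left unnamed. Levels are means over the cells of a library of UMIs per 10000 UMIs of the cell, and they are compared only within a gene, since the scale does not correct for how well a transcript is captured. For tests, the UMIs of all cells of a type in a library were added up and the sums compared by the quasi-likelihood test of edgeR, p-values being adjusted after Benjamini-Hochberg over every gene of the cell type, with a threshold of 0.05. In counts of genes without overlap between the groups, overlap was read from these summed UMIs, scaled and on a log2 scale. It was not read from the levels.

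The sequences just before the transcription starts are shown because most of the enzymes are highest in red blood cells. The motif GATAA, or TTATC on the other strand, is the core bound by GATA factors, of which GATA1 is the erythroid one. In the RefSeq promoter table (GRCm38.p6), which had 10 starts for 7 of the 8 members, the 250 bases before the start held the motif in *Alas2*, in *Cpox* and at the inner of the 2 starts of *Uros*, and at none of the other 7 starts. The share over all 32851 promoters of this length in the table was 22.6%, so that 3 of 10 starts is near the background. The stretches below run 5′ to 3′ on the gene's strand, from 250 to 51 bases before the start (*Uros*: 30 bases around the motif, from 81 to 52 bases before the inner start, where other annotated transcripts are already exonic), with the motif in capitals. They are the 3 that hold the motif and, for contrast, *Alad* before its outer start. *Alas2* lies at chrX:150547167-150547366 on the plus strand, *Cpox* at chr16:58669958-58670157 on the plus strand, *Uros* at chr7:133702552-133702581 on the minus strand and *Alad* at chr4:62520114-62520313 on the minus strand.
Alas2: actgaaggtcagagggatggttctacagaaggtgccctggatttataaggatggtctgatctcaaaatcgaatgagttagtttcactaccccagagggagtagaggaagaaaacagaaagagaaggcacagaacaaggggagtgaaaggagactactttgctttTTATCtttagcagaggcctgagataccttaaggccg
Cpox: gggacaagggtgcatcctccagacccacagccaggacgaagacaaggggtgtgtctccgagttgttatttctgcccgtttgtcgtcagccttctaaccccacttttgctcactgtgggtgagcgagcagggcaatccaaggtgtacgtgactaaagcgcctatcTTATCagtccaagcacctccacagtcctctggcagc
Uros: atctccctcagccTTATCagtgacagaggg
Alad: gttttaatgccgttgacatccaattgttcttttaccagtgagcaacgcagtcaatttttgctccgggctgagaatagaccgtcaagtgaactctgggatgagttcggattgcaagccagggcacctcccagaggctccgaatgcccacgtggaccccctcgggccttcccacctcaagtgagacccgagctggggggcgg

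Across the 7 cell types, 7 of the 8 enzymes had their highest level in red blood cells, in all 4 libraries. *Alas2*, the erythroid isoform of the first enzyme, was the steepest: its mean of 3.90 UMIs per 10000 in red blood cells (range 3.35 to 4.53) was 134 times the median of the other types, whose libraries lay between 0.00661 and 0.0767. *Cpox* followed with 4.05 (range 3.44 to 4.84), 15.9 times the median of the other types, then *Fech* with 10.3 times and *Uros* with 9.49 times. *Alad*, *Ppox* and *Urod* were 6.76, 6.24 and 5.77 times higher. *Alas1*, the isoform of other tissues, went the opposite way, with 0.0118 to 0.0219 in red blood cells against 0.110 to 0.472 elsewhere, the median of the other types being 15.4 times higher. The first step of the pathway was thus represented by a different gene in red blood cells than in the other types. The levels of the 4 libraries of red blood cells did not overlap with those of any other type for any of these genes.

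Among the types other than red blood cells, epithelial cells included, the order differed from gene to gene. *Alas1* was highest in cushion EdCs (mean 0.393 ± 0.0632, SD, n = 4 libraries), clear of all other types, followed by MCs (0.292 ± 0.0313) and chamber EdCs (0.275 ± 0.0231), which did not differ beyond their spread, then by CMs (0.227 ± 0.0119), epicardial cells (0.156 ± 0.0439) and epithelial cells (0.139 ± 0.0212), each overlapping with the next. *Alad* was highest in epicardial cells, at 2.24 ± 0.723, clear of chamber EdCs (0.661 ± 0.253), which overlapped with MCs (0.626 ± 0.121). Epithelial cells (0.513 ± 0.113), cushion EdCs (0.479 ± 0.147) and CMs (0.348 ± 0.0686) followed, each overlapping with the next. The epicardial level of *Alad* came within 1.72 times of that in red blood cells, while for *Urod*, the decarboxylase of the ring, epicardial cells were the lowest type (0.332 ± 0.0408). For *Uros*, *Urod*, *Cpox*, *Ppox* and *Fech* neighbours in the order overlapped throughout these types. The means lay between 0.0556 and 0.0868 for *Uros*, 0.332 and 0.474 for *Urod* and 0.147 and 0.307 for *Cpox*. They lay between 0.0767 and 0.117 for *Ppox*, highest in epithelial cells, and 0.129 and 0.196 for *Fech*. These are orders of description, since the libraries of a type come from the same hearts as those of the next.

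**Figure D1:**
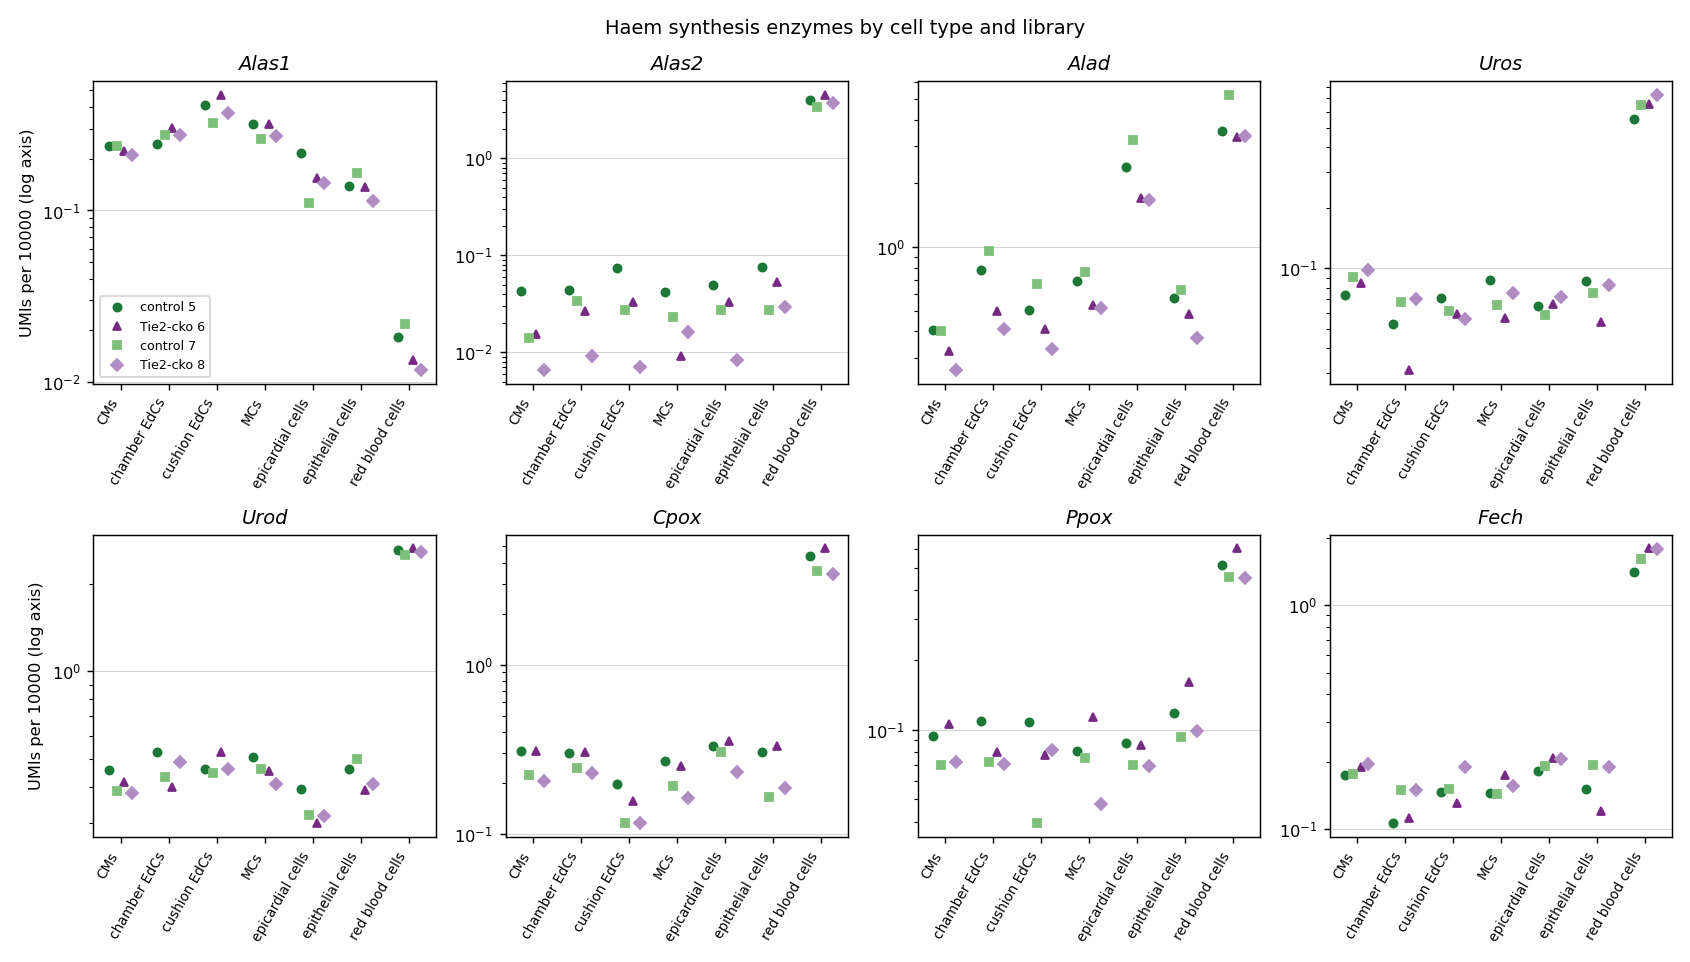
Level of each haem synthesis enzyme in UMIs per 10000 (log axis) in 7 cell types, with 1 point per library (green, control 5 and 7; purple, Tie2-cko 6 and 8). Red blood cells are highest for every gene but Alas1, which is lowest there, and the purple points of Alad lie below the green ones in all 7 cell types.

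In all 7 cell types, including those that are not endocardial, *Alad* stood lower in each *Tie2-cko* library than in either control. This is the pattern on which the genes were selected, and no test is attached to it. In CMs *Alad* was at 0.406 and 0.402 in controls 5 and 7 and at 0.323 and 0.263 in *Tie2-cko* 6 and 8 (log2 fold change -0.44 ± 0.14, SE, and -0.28 without *Tie2-cko* 8). In chamber EdCs it was at 0.781 and 0.957 against 0.497 and 0.409 (-0.92 ± 0.15), the widest difference. In cushion EdCs the levels were 0.505 and 0.670 against 0.408 and 0.330 (-0.76 ± 0.17). In cushion EdCs the controls thus differed more from each other than control 5 differed from *Tie2-cko* 6. Each of these values rested on at least 150 *Alad* UMIs per library, and on up to 13140 in red blood cells.

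In MCs *Alad* stood at 0.690 and 0.763 in controls and 0.535 and 0.515 in *Tie2-cko* (-0.58 ± 0.12). In epicardial cells it stood at 2.40 and 3.20 against 1.70 and 1.66 (-0.70 ± 0.17, and -0.46 without control 7), and in epithelial cells at 0.577 and 0.625 against 0.481 and 0.370 (-0.74 ± 0.18). In each of these types the groups did not overlap. The epithelial cells of the libraries were of different clusters, since library 6 had 35 cells in the cluster led by *Pax9* (256, 243 and 317 in libraries 5, 7 and 8) and 252 in the cluster led by *Nepn* (247, 0 and 4). Inside the *Pax9* cluster the groups overlapped, with *Alad* at 0.557 and 0.627 in controls and 0.601 and 0.379 in *Tie2-cko* (log2 difference -0.27). In red blood cells the levels were 3.54 and 5.24 against 3.30 and 3.33 (-0.45 ± 0.19, and -0.18 without control 7), so that control 5 lay next to the *Tie2-cko* pair and control 7 far above it. The *Tie2-cko* mean was between 52.1% and 75.5% of the control mean over the 7 types. By library number, which the labels do not give as a pairing, the log2 ratio of the levels of library 6 to library 5 ran from -0.65 (chamber EdCs) to -0.10 (red blood cells), and that of library 8 to library 7 from -1.23 (chamber EdCs) to -0.57 (MCs).

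The share of all tested genes with both *Tie2-cko* libraries below both controls was 8.22% in CMs, 18.0% in chamber EdCs, 13.8% in cushion EdCs, 11.7% in MCs, 11.4% in epicardial cells, 10.3% in epithelial cells and 10.7% in red blood cells. Of the 9556 genes tested in all 7 types, 13 (0.136%) were lower in this way in every type. *Alad* had the largest mean log2 difference of them (-0.65), ahead of *Aurkaip1* (-0.27), *Timm13* (-0.21), *Fkbp2* (-0.21) and *Ap2s1* (-0.20). *Tmem14c*, a carrier of a haem precursor into mitochondria and a gene of the pathway lists, was also among the 13, with a mean of -0.18. These counts are given as the background against which *Alad* was chosen and carry no further weight. By cluster rather than by type, *Alad* was lower without overlap in 16 of the 20 clusters with at least 20 cells in each library, and the log2 difference of the levels ran from -1.31 to 0.04. The cluster at -1.31 was left unnamed for its low UMIs and held 41, 6, 33 and 24 *Alad* UMIs in libraries 5, 6, 7 and 8. The cluster at 0.04 held macrophages and megakaryocytes and differed between pairs of libraries rather than genotypes: *Alad* was at 1.64 and 1.62 in libraries 5 and 6 and at 0.288 and 0.359 in libraries 7 and 8, which had only 26 and 35 such cells.

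None of the other 7 enzymes was past the threshold in the main comparison. All 7 passed the filter on low counts in each cell type, and none had an adjusted p under 0.05 in any of the 7 types, by edgeR or by DESeq2. At an unadjusted p under 0.05 there were 0 of 7 in CMs and red blood cells and 1 of 7, *Alas2*, in each of the other 5 types, together 5 of 49 tests (10.2%). Of all genes 0.423% were past it in CMs, 6.98% in chamber EdCs, 2.35% in cushion EdCs, 1.04% in MCs and in epicardial cells, 0.644% in epithelial cells and 0.422% in red blood cells, or 1.76% of all tests over the 7 types. The tests called few genes of any kind: 0% in CMs, cushion EdCs, MCs and red blood cells and 0.00868% in chamber EdCs (*Tek* alone). In epithelial cells they called 0.0242%, the embryonic globins *Hbb-y*, *Hbb-bh1* and *Hba-x*. In epicardial cells they called 0.0335%, the same genes and the adult globin *Hbb-bt*. That 0 members were called is thus near the background. In CMs, cushion EdCs, MCs and red blood cells, edgeR gave 66, 267, 133 and 44 genes at an unadjusted p under 0.05, and DESeq2 called 2, 9, 11 and 0 genes.

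*Alas1*, *Uros*, *Urod*, *Cpox*, *Ppox* and *Fech* gave 42 log2 fold changes over the 7 types, all between -0.36 and 0.21, and 26 of them were below 0. *Alas1* was at 0.236 and 0.236 in CMs of controls and at 0.223 and 0.211 in *Tie2-cko* (-0.16 ± 0.10, adjusted p = 1.00), whereas in cushion EdCs it was at 0.410 and 0.323 against 0.472 and 0.368 (0.21 ± 0.19, adjusted p = 0.999). The cell type by genotype term of *Alas1* in cushion EdCs against CMs did not pass the threshold (0.37 ± 0.154, adjusted p = 1.00), and the cushion value was 0.02 to 0.40 with 1 library left out. *Fech*, which inserts the iron, was the enzyme with *Tie2-cko* libraries above controls in red blood cells (means 1.51 ± 0.152 and 1.79 ± 0.00788, SD, n = 2, log2 fold change 0.19 ± 0.14, adjusted p = 1.00) and in MCs (0.18 ± 0.14). *Urod* in red blood cells was the most even, with 2.61 and 2.52 in controls and 2.65 and 2.57 in *Tie2-cko* (0.02 ± 0.15). *Cpox* varied more between the pairs of libraries than between genotypes, with 4.35 and 4.84 in red blood cells of libraries 5 and 6 and 3.59 and 3.44 in those of libraries 7 and 8, and in the same order in CMs (0.311, 0.309, 0.223 and 0.206). *Uros* and *Ppox*, the least counted of the cytosolic and mitochondrial enzymes, had their widest differences at -0.27 ± 0.29 in cushion EdCs and -0.29 ± 0.27 in MCs. Of the 7 enzymes, 1 to 3 per type were lower without overlap by the summed UMIs (3 in epithelial cells, *Alas1*, *Alas2* and *Urod*). Together these were 11 of 49 tests (22.4%), beside 11.8% over all genes and types. Without *Alas2* they were 6 of 42 (14.3%). By the levels, *Alas2* overlapped in epithelial cells (0.0767 and 0.0271 in controls against 0.0528 and 0.0293 in *Tie2-cko*). It also overlapped by the levels in cushion EdCs (0.0736 and 0.0271 against 0.0333 and 0.00706) and epicardial cells (0.0499 and 0.0275 against 0.0332 and 0.00830). The median log2 fold change over the 7 enzymes was between -0.17 (MCs) and 0.13 (red blood cells), against -0.005 to 0.016 over all genes.

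**Figure D2:**
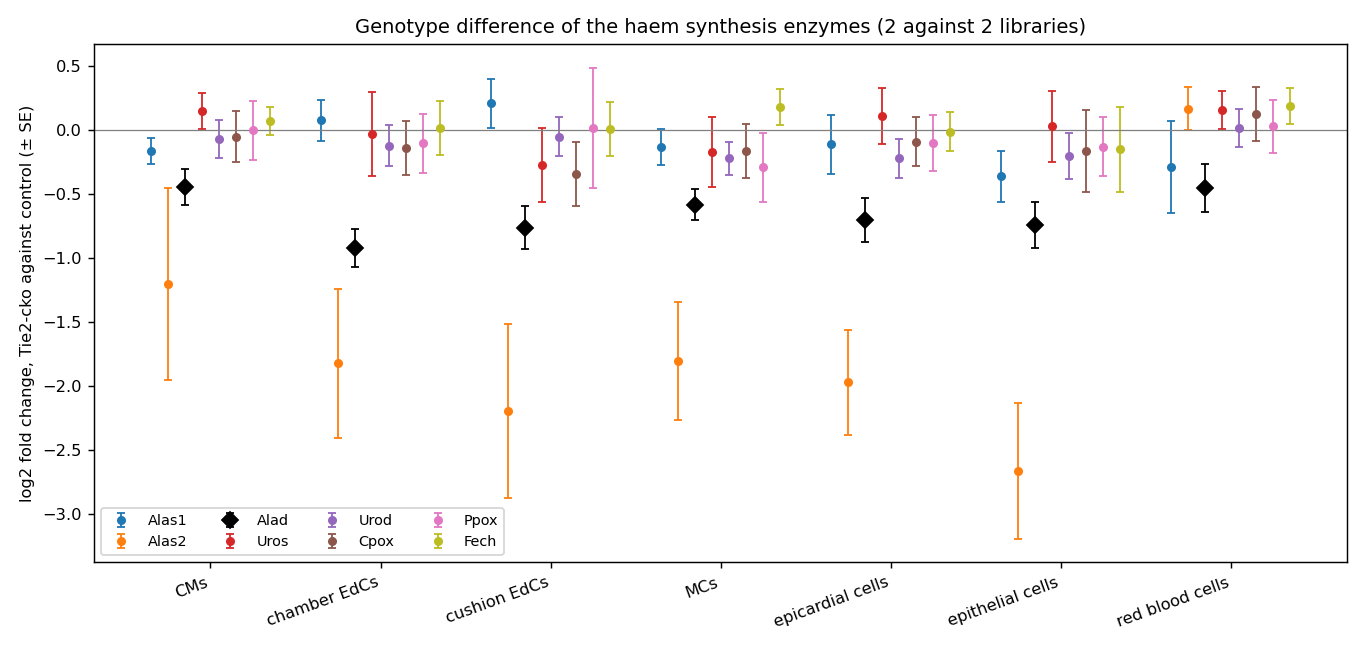
Log2 fold change of each enzyme (Tie2-cko against control, edgeR, bars ± SE, 2 against 2 libraries) in 7 cell types. Alad (black diamonds) lies between -0.92 and -0.44, Alas2 (orange) between -2.66 and -1.20 outside red blood cells and at 0.17 in them, and the other 6 enzymes between -0.36 and 0.21.

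*Alas2* was the only other enzyme with a log2 fold change beyond 0.36 in either direction, in the 6 types other than red blood cells. In red blood cells it was at 4.02 and 3.35 in controls and at 4.53 and 3.70 in *Tie2-cko* (log2 fold change 0.17 ± 0.17, adjusted p = 1.00), and the groups overlapped. In the 6 other types it rested on few UMIs, for example 53 and 27 in chamber EdCs of controls 5 and 7 and 12 and 6 in those of *Tie2-cko* 6 and 8, and its log2 fold change ran from -1.20 ± 0.75 in CMs to -2.66 ± 0.53 in epithelial cells (adjusted p between 0.588 and 1.00). Leaving out 1 library moved these values widely. In CMs the log2 fold change was -0.01 without control 5, -0.57 without *Tie2-cko* 8 and -2.24 without *Tie2-cko* 6, and without control 5 it was -1.05 in chamber EdCs and -1.14 in cushion EdCs. A block for libraries 5 and 6 against 7 and 8 was also fitted, a division by number that the labels do not give as a pairing. With it *Alas2* was called in all 6 types (-2.75 to -1.15, adjusted p between 0.000124 and 0.00490 by edgeR). Of all genes, 61 of 15598 were then called in CMs, 883 of 11525 in chamber EdCs and 116 of 11344 in cushion EdCs. In MCs, epicardial cells and epithelial cells the counts were 106 of 12738, 65 of 11951 and 70 of 12421. In epithelial cells the mean of the levels of *Alas2* fell less, to 79.0% of the control mean, than the summed UMIs (63 and 20 against 7 and 9). A level by its construction weighs shallow cells as much as deep ones. The genotype difference of *Alas2* differed between red blood cells and CMs, with a cell type by genotype term of 1.24 ± 0.212 (adjusted p = 8.30e-06 by edgeR with the library as a block), among 0.210% of genes called for that term. This call rested on control 5: the term was 0.45 ± 0.356 (adjusted p = 1.00) without it, and 0.73 without *Tie2-cko* 8, 1.89 without control 7 and 2.0 without *Tie2-cko* 6 (adjusted p at most 0.0280). The terms of the other types against CMs were -0.54 (MCs) to -1.58 (epithelial cells), with adjusted p between 0.606 and 1.00. No other member was called for any term. The terms of *Alad*, given as a description, were -0.48 in chamber EdCs and -0.29 to -0.06 in the other types. The background was 0.716% of genes called in chamber EdCs, 0.0381% in cushion EdCs, 0.00635% in MCs, 0.00636% in epicardial cells and 0% in epithelial cells.

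The globins moved with *Alas2*. Their summed level in CMs was 54.0 and 22.9 UMIs per 10000 in controls 5 and 7 and 15.8 and 8.95 in *Tie2-cko* 6 and 8. In chamber EdCs it was 94.6 and 39.4 against 15.6 and 15.0, and in epicardial cells 56.6 and 34.2 against 13.1 and 8.47. In the 6 types other than red blood cells the globins were 3.10 times (CMs) to 4.38 times (chamber EdCs) lower in *Tie2-cko*, and in each type both *Tie2-cko* libraries lay below both controls. The exact permutation test over the libraries gave its smallest two-sided p, 0.33, in all 6 types. In red blood cells themselves the globins took 4490 and 4476 UMIs per 10000 in controls and 4489 and 4619 in *Tie2-cko*. Over all kept cells they took 636, 392, 433 and 108 UMIs per 10000 in libraries 5, 7, 6 and 8, which held 1147, 655, 500 and 179 red blood cells. The summed level of the other erythroid genes was also lower in *Tie2-cko* in all 6 types, with log2 ratios between -0.90 and -0.41 (exact permutation p = 0.33 in 5 types and 0.667 in epithelial cells). This sum is not red cell RNA alone. *Klf1*, for example, was at 0.273, 0.265 and 0.0194 UMIs per 10000 in the clusters of MCs and at 1.14 in red blood cells. The part that red cell RNA has in the sum was not tested.

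How much of each enzyme red cell RNA could bring was computed per library, from the ratio of the enzyme's UMIs to the globin UMIs in that library's red blood cells and the globin level of the type. For *Alas2* this expected level was 38.6% to 184% of the level measured, with a median of 103% over the 6 types and 4 libraries. In CMs the measured levels of 0.0429, 0.0142, 0.0156 and 0.00661 in libraries 5, 7, 6 and 8 stood beside expected levels of 0.0460, 0.0162, 0.0155 and 0.00705. In CMs the expected level was thus 99.2% to 114% of the measured one. CMs were the type with the narrowest range. For *Alad* the expected level was 0.344% to 15.7% of that measured, with a median of 3.38%. In CMs 0.0420, 0.0263, 0.0116 and 0.00605 UMIs per 10000 were expected in libraries 5, 7, 6 and 8 where 0.406, 0.402, 0.323 and 0.263 were measured, so that *Tie2-cko* minus control was -0.111 in the measured means and -0.0253 in the expected ones. Overlap after subtraction of the expected part was read from the levels. *Alad* was still lower without overlap in all 6 types. The log2 ratios of its mean levels lay between -0.87 (chamber EdCs) and -0.33 (epithelial cells), against -0.94 and -0.50 before. Of the remaining enzymes, *Cpox* had the largest expected part (up to 33.8%, median 8.64%) and *Alas1* the smallest (at most 0.254%), and after subtraction none of *Uros*, *Urod*, *Cpox*, *Ppox* and *Fech* was lower without overlap in any type. *Alas1* remained so in 2 of 6 types, CMs and epithelial cells. For *Alas2* the mean left after subtraction was below 0 in at least 1 genotype in 4 types, and *Tie2-cko* was above control in the other 2, by 1.42 (cushion EdCs) and 2.14 (epicardial cells) on the log2 scale, on at most 0.0204 UMIs per 10000.

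**Figure D3:**
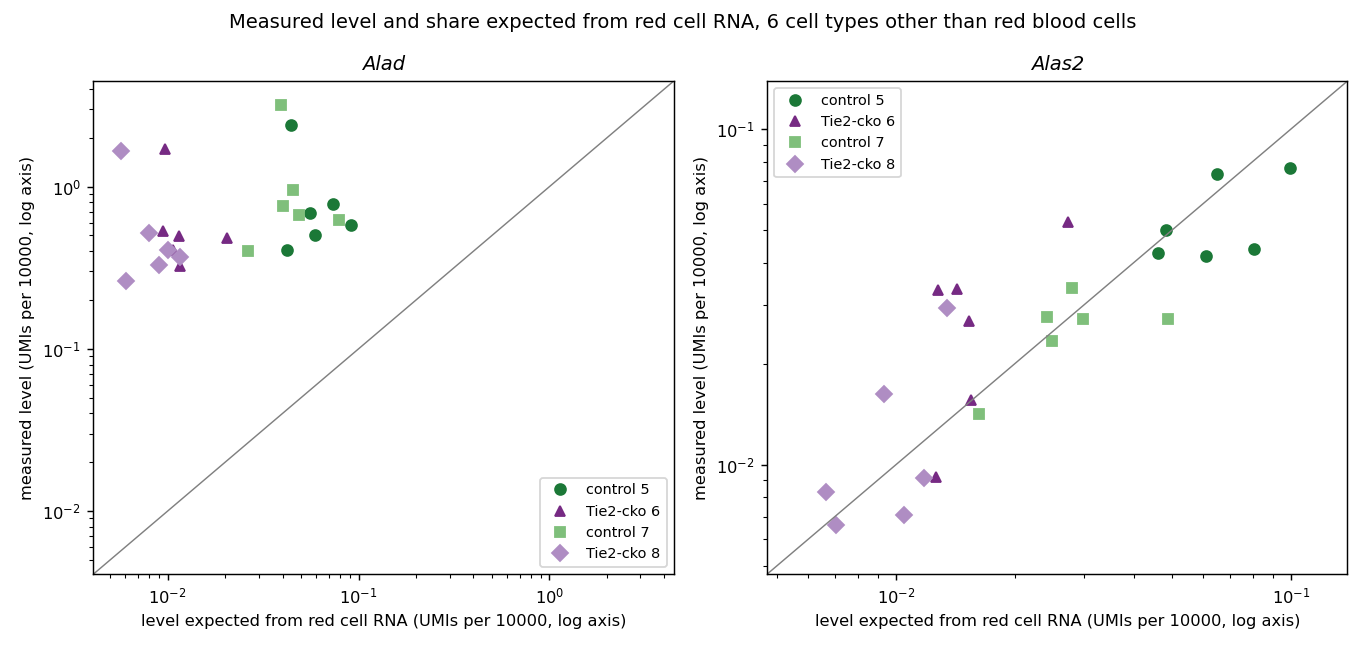
Measured level against the level expected from red cell RNA (UMIs per 10000, both axes log, grey line where they are equal) in the 6 cell types other than red blood cells, with 1 point per cell type and library. The points of Alas2 scatter around the line (median 103% of the measured level), and those of Alad lie far above it (median 3.38%).

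The genes around *Alad* were then compared. *Alad* lies at chr4:62509169-62519918 on the minus strand (GRCm38, GENCODE M21), 32.2 Mb from *Tek* on the same chromosome, and 22 other genes of the files have their start within 500 kb of its start. Of these, 13 passed the filter in at least 1 cell type. *Hdhd3*, the next gene on 1 side (chr4:62499008-62503467, minus strand, start 16.5 kb away), which encodes a hydrolase of the HAD family, had log2 fold changes between -0.74 and -0.40 in the 7 types, and the groups did not overlap in 5 of them. Its levels in CMs were 0.0379 and 0.0448 in controls and 0.0311 and 0.0289 in *Tie2-cko* (-0.40 ± 0.15, adjusted p = 1.00), and in epicardial cells 0.0751 and 0.0873 against 0.0364 and 0.0521 (-0.74 ± 0.26, adjusted p = 1.00). Without control 7 the log2 fold change of *Hdhd3* was 0.14 in epithelial cells and 0.15 in red blood cells (-0.70 and -0.56 with all libraries) and -0.27 in MCs (from -0.57), and without *Tie2-cko* 8 it was -0.26 in cushion EdCs (from -0.57). *Hdhd3* was past an unadjusted p of 0.05 in 4 of 7 types and past the adjusted threshold in none. Unlike *Alad*, *Hdhd3* was no red blood cell gene (0.0137 to 0.0321 there).

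*Pole3*, a histone-fold subunit of DNA polymerase epsilon that starts 5.15 kb away on the other side, had log2 fold changes between -0.21 and -0.04. In chamber EdCs its levels were 0.688 and 0.690 in controls and 0.730 and 0.646 in *Tie2-cko*, and so overlapped. By the summed UMIs both *Tie2-cko* libraries lay below both controls there (log2 fold change -0.19 ± 0.14, adjusted p = 0.845 by edgeR). The 8 genes other than *Hdhd3* that were tested in all 7 types, *Pole3*, *Rgs3*, *Prpf4*, *Cdc26*, *Slc31a1*, *Fkbp15*, *Slc31a2* and *Zfp37*, had medians over the types between -0.13 and 0.06. *Alad* and *Hdhd3*, which lie near each other, thus had log2 fold changes of -0.40 or lower in all 7 types with all 4 libraries. *Pole3* was also below 0 in all 7 types, though nearer 0 (-0.21 to -0.04). The medians of the 8 neighbours, *Pole3* among them, were near 0. Single values departed from this, such as *Zfp37* in cushion EdCs (0.73 ± 0.23, adjusted p = 0.999) and *Rgs3* in red blood cells (-1.85 ± 0.73, adjusted p = 1.00, on levels of at most 0.0137).

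**Figure D4:**
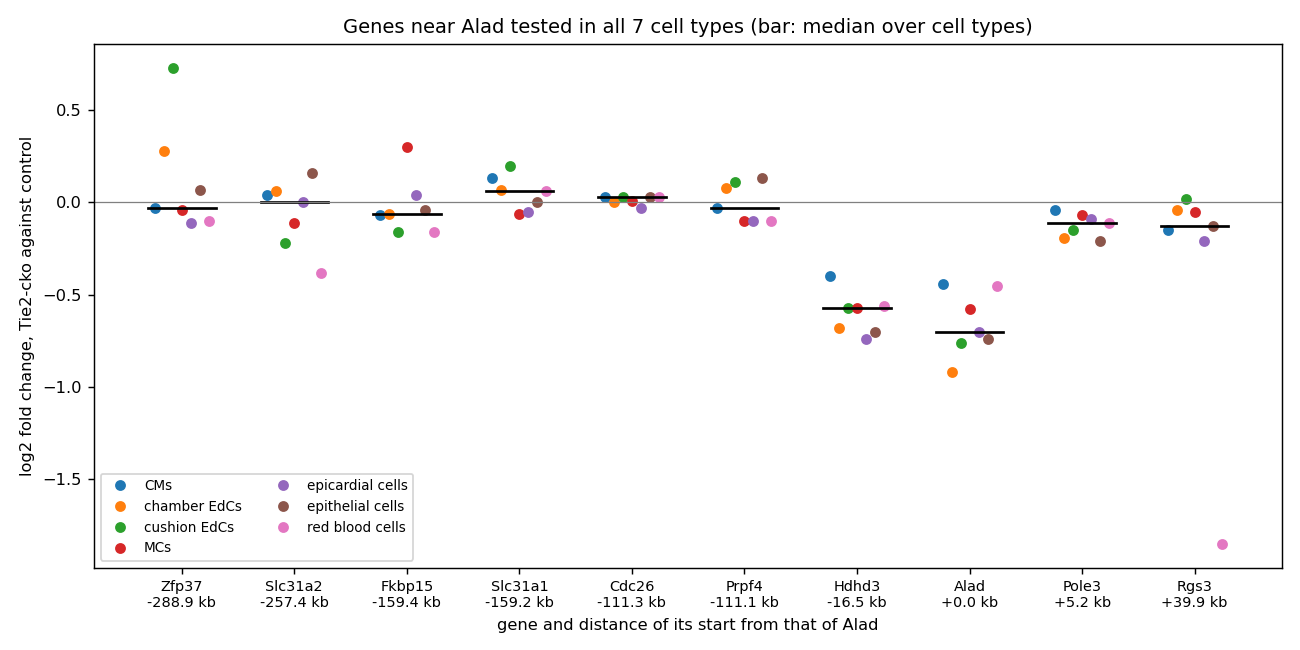
Log2 fold change (Tie2-cko against control) of the genes near Alad that were tested in all 7 cell types, ordered by the distance of their start from that of Alad in kb, with 1 point per cell type and a bar at the median. Hdhd3 (median -0.57), Alad (median -0.70) and, nearer 0, Pole3 (median -0.11) lie below 0 in every cell type. The medians of the 8 genes other than Hdhd3 and Alad lie between -0.13 and 0.06.

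*Alad* also differed inside control library 5. Its cells with *Xist* and no Y-linked UMI were set beside its cells with Y-linked and no *Xist* UMIs. The 5 types with at least 50 cells of each kind were used. These kinds of cells come from different embryos of the same genotype and also differ in sex. Embryo and sex cannot be told apart here, and both *Tie2-cko* libraries held no more than traces of *Xist*. In CMs *Alad* was at 0.559 UMIs per 10000 summed UMIs in 493 *Xist* cells (95% Poisson interval 0.522 to 0.597) and at 0.373 (0.359 to 0.388) in 1804 Y-linked cells. In epicardial cells it was at 3.58 (3.27 to 3.92) against 1.99 (1.87 to 2.12), and in red blood cells at 5.38 (5.11 to 5.66) against 3.35 (3.27 to 3.43). The ratio was 1.42 in MCs, 1.46 in chamber EdCs, 1.61 in red blood cells and 1.80 in epicardial cells, with CMs between chamber EdCs and red blood cells, and so was in the range of the ratio between genotypes. The intervals cover counting error only, and with 1 library there is no replicate of this difference.

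The other enzymes had lower ratios. In red blood cells, where their counts are highest, the same ratio was 0.960 for *Alas2*, 0.982 for *Uros*, 0.984 for *Urod*, 0.973 for *Cpox*, 0.869 for *Ppox* and 0.970 for *Fech*. In CMs they lay between 0.872 (*Urod*) and 1.17 (*Alas2*), apart from *Alas1* at 0.640. In epicardial cells, where the ratio of *Alad* was highest, *Uros* was at 1.59 on few UMIs (14 and 35) and *Cpox* at 1.26 (51 and 161 UMIs). *Hdhd3* had a ratio of 1.67 in CMs (87 and 220 UMIs) and 1.92 in epicardial cells (15 and 31 UMIs), but 1.06 in MCs (13 and 41 UMIs), and *Pole3* lay between 0.950 and 1.11 over the 5 types. Globins were at 45.1 and 48.5 UMIs per 10000 in the 2 kinds of CMs and at 48.0 and 46.6 in those of epicardial cells, and at 66.3 and 68.5 in MCs. In chamber EdCs they were lower in the *Xist* cells, at 55.0 against 75.1, while *Alad* was higher there. Of 1283 genes with at least 100 UMIs in both kinds of cells of each type, 3 (0.234%) had a ratio at or above 1.42 in all 5 types, *Alad* itself, *Rpl29* and *Gm47283*. This limit was set at the lowest ratio of *Alad* after it had been seen.

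With the Y-linked cells alone in all 4 libraries, *Alad* was at 0.619 and 0.721 in MCs of controls and at 0.495 and 0.487 in those of *Tie2-cko*. In red blood cells the corresponding levels were 3.23 and 5.19 against 3.38 and 3.14, and control 5 fell between the *Tie2-cko* libraries. Control 5 came near *Tie2-cko* 6 in cushion EdCs (0.435 against 0.393), epithelial cells (0.475 against 0.420) and CMs (0.371 against 0.320). By ratio it was about as near in epicardial cells (2.01 against 1.70) as in CMs. It lay furthest above *Tie2-cko* 6 in chamber EdCs (0.675 against 0.449). *Alad* was thus lower without overlap in 6 of 7 types, and in red blood cells only control 7 stood above the rest. Whether the embryos behind each library differ in *Alad* for a reason other than the loss of *Tie2* was not tested.

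**Figure D5:**
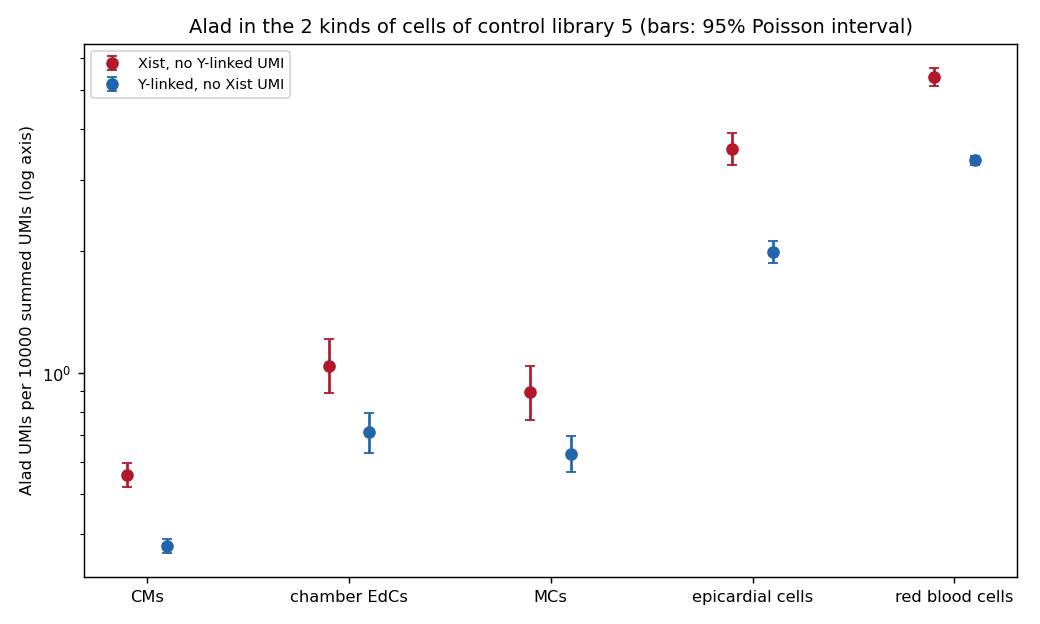
Alad UMIs per 10000 summed UMIs (log axis, bars 95% Poisson intervals) in cells of control library 5 with Xist and no Y-linked UMI (red) and with Y-linked and no Xist UMIs (blue), in the 5 cell types with at least 50 cells of each kind. The red points lie above the blue ones in every cell type, by a ratio of 1.42 to 1.80.

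The genes that supply the pathway and use its product showed no call. Of 35 genes in 3 lists (mitochondrial supply, iron uptake and storage, and haem export, breakdown and sensing), which gave 225 tests over the 7 types, 0 had an adjusted p under 0.05 by edgeR or by DESeq2, and 10 (4.44%) had an unadjusted p under 0.05, beside 1.76% of all tests over the 7 types. The list medians ran from -0.20 to 0.03 on the log2 scale. All 10 were negative. Among them were *Slc25a37* (mitoferrin, the erythroid importer of iron into mitochondria) in cushion EdCs (-0.86), MCs (-0.58) and epicardial cells (-0.53), and *Blvrb*, a biliverdin reductase abundant in red cells, in epithelial cells (-1.03), cushion EdCs (-0.50) and epicardial cells (-0.50). *Tmem14c* (-0.38) and *Fth1* (-0.35) in chamber EdCs and *Tspo* (-0.40) in cushion EdCs were also among them. By the summed UMIs, 4 of the 14 mitochondrial supply genes were lower without overlap in CMs, beside 8.22% of all genes. In cushion EdCs they were 7 of 14, beside 13.8%. The other types lay between 4 and 6 of 14, and at most 1 per type was higher. For iron uptake and storage 0 to 4 genes per type were lower and 0 to 2 higher. For haem export, breakdown and sensing 1 to 3 were lower and 1 to 3 higher. Globins were lower in the same libraries, and their part in these values was not tested.

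Among the genes whose log2 scaled counts were most like those of *Alad* over the 28 combinations of library and type were *Anp32b* (Pearson's r = 0.871), *Ncoa4*, the receptor for ferritin turnover (0.869), *Smim1* (0.854) and *Taf12* (0.848), of 9556 genes compared. The enzymes had r between 0.627 (*Urod*) and 0.778 (*Cpox*), apart from *Alas1* at -0.760, while *Hdhd3* had -0.249. The points share libraries, and most of the spread lies between red blood cells and the rest, so that these values describe the cell types and not the genotypes.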

How the data were processed

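Per gene and cell barcode the authors counted UMIs with Cell Ranger (file headers give version 6.1.2, the methods another; build mm10 per the labels) and deposited these counts without normalization for 4 libraries. The members and the gene lists were chosen with earlier results of these data known.

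Barcodes with at least 500 genes, 1000 UMIs and at most 10% mitochondrial UMIs were retained, and by Scrublet score (scanpy 1.11.5) the highest were removed at 0.8% per 1000 barcodes, since the automatic threshold marked 0, 3, 305 and 1 barcodes in libraries 5, 6, 7 and 8. Seurat 5.3.0 clustered the cells (2000 variable genes without the genes of the lists, 30 components, 20 neighbours, resolution 0.8, no integration). Clusters were named by markers at 0.25 or more of their highest level, with at least 3 markers and more than 0.5 of a list. Clusters with median UMIs under 0.333 of the library median were left unnamed. So were EdC clusters with *Nrg1*, and MC clusters with *Postn*, under 0.25 of the highest level. Summed counts were compared across all genes with edgeR 4.0.16 (TMM, filterByExpr, genotype only), and standard errors are the absolute log2 fold change over the square root of F. DESeq2 1.42.0, other scalings, filters and cell selections and each library left out were alternatives. Statistics were tested on simulated data. Free RNA was not removed. Further tools were R 4.3.3, limma 3.58.1, Python 3.11.15, numpy 2.4.6, pandas 2.3.3 and scipy 1.17.1. Gene positions are from GENCODE M21 on GRCm38.

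Named in the text are the members, *Tek*, the globins, sex-linked genes, genes near *Alad*, list genes past the threshold, the 5 genes most like *Alad* over libraries and types, and the 5 largest among those lower in every type. List genes at an unadjusted p under 0.05, *Tmem14c* among the 13 genes, *Rpl29* and *Gm47283* were named after their values were seen. Some genes that the rule names are not reported here. Depth limits *Alas2* outside red blood cells, *Hdhd3*, *Uros* and *Ppox* most, and intervals cover counting error only.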

Additional observations from a re-analysis of the deposited data

Results flagged for a closer look

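The genotype difference of *Alas2* differed between red blood cells and CMs by 1.24 ± 0.212 on the log2 scale (cell type by genotype term, adjusted p = 8.30e-06 by edgeR with the library as a block). It is listed here because the difference between these cell types was itself tested and passed the threshold. Without control library 5 the term was 0.45 ± 0.356 (adjusted p = 1.00), so that the call rested on that library. The level of *Alas2* expected in CMs from red cell RNA was 107%, 114%, 99.2% and 107% of that measured in libraries 5, 7, 6 and 8, and globins were lower in CMs of both *Tie2-cko* libraries.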

How the results depend on the processing

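*Alad* was lower in *Tie2-cko* in each cell type under every alternative run (96 values between -1.04 and -0.18 on the log2 scale, 90 of them within the spread between replicates of the main value). Subtraction of red cell RNA gave -0.40 in MCs and -0.33 in epithelial cells (from -0.47 and -0.50 on the same scale of levels). Leaving out 1 library in turn gave -0.61 to -0.28 in CMs, -1.04 to -0.80 in chamber EdCs, -0.93 to -0.56 in cushion EdCs, -0.65 to -0.49 in MCs, -0.91 to -0.46 in epicardial cells, -0.86 to -0.62 in epithelial cells and -0.68 to -0.18 in red blood cells. The value nearest 0 in cushion EdCs, epicardial cells and red blood cells came without control library 7, and that in CMs furthest from 0 without *Tie2-cko* library 6. The number of cell types without overlap was 7 of 7, or 6 of 6 where red blood cells do not enter, under each alternative but 1: with Y-linked cells alone it was 6 of 7. *Alad* was chosen by this contrast in these libraries, so the count is a description only. Leaving a library out of groups that do not overlap cannot, apart from rescaling, make them overlap.

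The number of members other than *Alad* that were called rose from 0 to 1 of 7, *Alas2* each time, in the 6 types other than red blood cells with a block for libraries 5 and 6 against 7 and 8, in chamber EdCs, cushion EdCs and MCs without the filter on low counts, in chamber and cushion EdCs without control library 7 and in epicardial cells without *Tie2-cko* library 6 (range 0 to 1 over the libraries left out). The cause was not tested. The block is a division by library number that the labels do not state, and under it 4 to 883 genes were called per type. Without the filter on low counts 170 of 18281 genes were called in chamber EdCs, 41 of 17912 in cushion EdCs and 25 of 19604 in MCs. The labels give the libraries no shared replicate numbers, and the methods, which state a match by somites within a litter, do not say which libraries it joins.

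The cell type by genotype term of *Alas2* in red blood cells against CMs ran from 0.45 to 2.0 over the libraries left out, and was not past the threshold without control library 5. The summed globin log2 difference ran, over the libraries left out, from -2.12 to -0.89 in CMs, -2.63 to -1.37 in chamber EdCs, -2.45 to -1.59 in cushion EdCs, -2.53 to -1.50 in MCs, -2.42 to -1.67 in epicardial cells and -2.43 to -1.61 in epithelial cells, being nearest 0 without control library 5. Of 716 single values of the other enzymes and *Hdhd3* under alternatives, 0 reversed direction, a difference within 1 SE counting as without direction, and 12 newly passed the threshold, all of *Alas2*. A value within 1 SE of 0 could not reverse under this rule, so the 0 does not show that directions were stable. With 1 library left out, log2 fold changes crossed 0 for *Ppox* in cushion EdCs (-0.64 to 1.05) and *Fech* in epithelial cells (-0.62 to 0.22). Those of *Uros* in MCs (-0.62 to 0.11) also did, while *Alas1* in CMs did not (-0.19 to -0.12). Library sizes without globins, library totals in place of TMM, levels by cluster, the Y-linked selection and the term of *Alas2* without each library were chosen after the data were seen.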

Other observations

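Cells outside the 7 tested types held the enzymes at levels of their own. Hepatic endoderm-like cells, which had 246, 317 and 53 cells in libraries 5, 6 and 8 and none in library 7, held *Alad* at 0.410, 0.416 and 0.0973 UMIs per 10000 and *Cpox* at 0.366, 0.299 and 0.439. In the cluster of macrophages and megakaryocytes *Cpox* was at 1.94 and 2.60 in libraries 5 and 6 and at 0.312 and 0.315 in libraries 7 and 8, and *Fech* at 0.387, 0.396, 0.122 and 0.190. The cells of this cluster were unlike each other between libraries, since the macrophage markers summed to 8.02, 5.78, 25.3 and 21.2 and the megakaryocyte markers to 11.4, 15.3, 1.51 and 35.9 UMIs per 10000 in libraries 5, 6, 7 and 8. No comparison of genotypes was made there.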
